A study of Homo sapiens with 6 samples.

Results

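The CCN genes and the genes of the Hippo and YAP pathway were examined in WPMY-1 cells, an immortalized line of human prostate stromal cells, given lactate or left untreated. A gene belonged to the set if its symbol in the deposited count table was *CYR61*, *CTGF*, *NOV*, *ANKRD1*, *AMOTL2*, *AXL*, *YAP1*, *WWTR1*, *TEAD1* or *LATS2*. All 10 were listed among the 15924 symbols of the table, and all 10 were among the 13188 genes with enough reads to be tested. The lactate group (n = 3 libraries) came from WPMY-1 cells given 24 mM lactate for 48 h, and the control group (n = 3) from WPMY-1 cells without it, so the groups share the line and differ by the lactate label alone. According to the study's methods, cells received buffered lactic acid at slightly acid pH and were kept without CO2, while an atmosphere with CO2 is given in the labels. The pH of the control medium is not given for these libraries, so lactate and acidity cannot be told apart. The line descends from a single donor and carries a viral oncogene, which limits it as a model of prostate stroma. The labels call the libraries biological replicates but do not say what separates them, so p-values measure the spread between these 6 libraries.

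CCN proteins are secreted, matrix-associated signaling proteins. *CYR61* (CCN1) and *CTGF* (CCN2) promote adhesion, matrix production and fibrosis, whereas *NOV* (CCN3) often acts against CTGF. In the Hippo pathway, the LATS kinases phosphorylate the coactivators YAP (*YAP1*) and TAZ (*WWTR1*) and keep them out of the nucleus. Unphosphorylated YAP and TAZ bind TEAD factors on DNA and switch on target genes, of which *CTGF*, *CYR61* and *ANKRD1* are the usual readouts. In fibroblasts this pathway responds to cell shape, matrix stiffness and actin tension.

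Because YAP and TAZ reach DNA through TEAD factors, the sequence before the annotated starts of these genes was read from RefSeq (GRCh38.p14). Of the 10 genes, 7 matched an entry, with 10 start sites among them, and 250 bases before each start were searched. *CYR61*, *NOV* and *TEAD1* had no entry and were not searched. The TEAD motif searched was CATTCC on either strand, which reads GGAATG on the other strand. Of 35116 such windows across the genome, 11.9% held the motif at least once, 0.94% held 2 or more copies and 0.0826% held 3 or more. The window of *CTGF* held 3 copies, at -169 to -164, -104 to -99 and -95 to -90 from the start, and that of *ANKRD1* held 2, at -220 to -215 and -128 to -123. Both windows are shown because these genes rose together below, as did *CYR61*, for which no window was available. They are written 5′ to 3′ on the gene's strand with the TEAD motif in capitals, from chr6:131951373-131951622 (minus strand) and chr10:90921088-90921337 (minus strand).
CTGF: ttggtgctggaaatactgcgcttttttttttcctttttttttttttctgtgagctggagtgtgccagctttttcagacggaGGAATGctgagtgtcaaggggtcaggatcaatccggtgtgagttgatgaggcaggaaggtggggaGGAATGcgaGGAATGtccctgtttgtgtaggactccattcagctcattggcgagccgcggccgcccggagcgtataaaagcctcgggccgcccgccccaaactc
ANKRD1: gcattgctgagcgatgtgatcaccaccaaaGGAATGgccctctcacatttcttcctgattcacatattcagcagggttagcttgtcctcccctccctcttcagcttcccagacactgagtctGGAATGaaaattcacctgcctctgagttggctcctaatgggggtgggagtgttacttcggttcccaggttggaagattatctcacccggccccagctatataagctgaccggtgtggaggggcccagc
In *CTGF* the pair nearest the start stood 3 bases apart. The *ANKRD1* window also held the AP-1 motif (TGANTCA, either strand, 6.57% of windows) at -195 to -189, which overlapped no TEAD match, and the *CTGF* window held none. *YAP1* had a TEAD match at -162 to -157, *AMOTL2* at -69 to -64 of its other start site and *AXL* at -212 to -207 of its other start site. No match stood in the windows of *LATS2* or *WWTR1*, and the CArG box, the motif of SRF (1.16% of windows), was in none of the 10 windows. A match describes these letters and not binding.

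**Figure D1:**
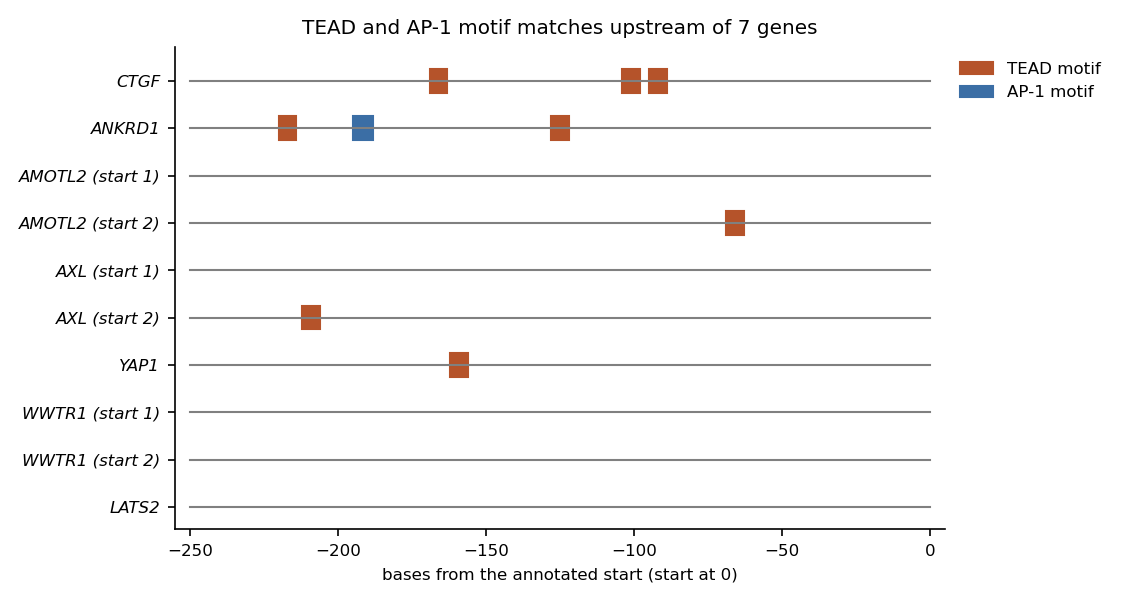
Positions of the TEAD motif (brown) and the AP-1 motif (blue) in the 250 bases before each annotated start, in bases from the start on the x axis, with a line for each start site of the 7 genes that matched. *CTGF* has 3 TEAD matches and *ANKRD1* has 2, and the other windows have 1 or none.

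The libraries held 20392320 to 24055634 counts with lactate and 20238653 to 46505372 counts without. Replicate 1 of each group stood apart from replicates 2 and 3. The chi-square between libraries of a group was taken over the 13013 to 13454 genes with enough reads in the pair. It was 59.4 to 117 per degree of freedom for pairs with replicate 1 and 7.13 to 10.4 for pairs without it. This measure also grows with depth. Control replicate 1 held the most counts (46505372), while lactate replicate 1 held the fewest of its group (20392320). Stromal markers were high in every library, with summed levels of 6841 to 7287 CPM (read counts relative to library size, TMM scaled) in lactate libraries and 6608 to 7371 CPM in controls for 8 genes, led by the intermediate filament gene *VIM*. Of 8 prostate epithelial markers, 6 were listed, with sums of 841 to 1222 CPM with lactate and 872 to 1305 CPM without, most of it from the keratin gene *KRT18*, while the defining markers *EPCAM*, *CDH1* and *KRT5* stayed under 1 CPM in every library and *KRT5* was at 0 in the lactate libraries. The 4 endothelial markers summed to 0.573 to 1.65 CPM with lactate and 0.78 to 1.76 CPM without. Of 4 blood cell markers 3 were listed, with sums of 78.1 to 99.7 CPM with lactate and 55.3 to 58.7 CPM without. That difference was carried by the lysosomal protein gene *CD68*, since the leukocyte gene *PTPRC* stayed under 1 CPM, and its part in the results was not tested. In bulk RNA, fewer cells of a type and less RNA per cell cannot be told apart.

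To ask how lactate affected these genes, each was tested in a fit over all 13188 genes (edgeR, two-sided, Benjamini-Hochberg adjustment over all genes tested). Of the 10, 3 rose with lactate, *CYR61*, *CTGF* and *ANKRD1*, 1 fell, *NOV*, and 6 did not pass. Across all genes 9.43% passed the same threshold of 0.05, 5.29% higher and 4.14% lower. The median log2 fold change of the 10 was 0.28, against -0.02 over all genes. The groups did not overlap for 6 of the 10, 5 higher with lactate and 1 lower, against 32.6% of all genes, 17.3% higher and 15.3% lower.

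*CYR61*, on chromosome 1 (85580761 to 85583962, GRCh38, plus strand), had 1491, 1280 and 1387 CPM in lactate replicates 1, 2 and 3, against 539, 456 and 485 CPM in control replicates 1, 2 and 3. Every lactate library lay above every control. The mean was 1386 ± 105 CPM with lactate and 494 ± 42.2 CPM without (SD, n = 3 each), a 2.81-fold rise (log2 fold change 1.49, SE 0.138, adjusted p = 0.00113). Only 1.38% of the tested genes had a larger rise.

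*CTGF*, on chromosome 6 (131948176 to 131951373, minus strand), rose by nearly the same amount. It had 229, 200.4 and 211 CPM in the lactate libraries, against 78.8, 77.8 and 75.9 CPM in the controls. The controls lay within 3 CPM of each other, far below the lowest lactate library. The means were 214 ± 14.7 CPM with lactate and 77.5 ± 1.51 CPM without, a 2.76-fold rise (log2 fold change 1.46, SE 0.131, adjusted p = 9.77e-04).

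*NOV*, on chromosome 8, went the other way. It had 3.94, 5.83 and 4.59 CPM in the lactate libraries, from 75, 141 and 112 reads, against 13.1, 20 and 19.7 CPM in the controls, from 572, 420 and 501 reads. Every lactate library lay below every control, and replicate 1 was the lowest of its group in each. The mean was 4.79 ± 0.96 CPM with lactate and 17.6 ± 3.9 CPM without (log2 fold change -1.87, SE 0.243, adjusted p = 0.0044). A larger rise, or a smaller fall, was seen in 99.5% of tested genes. Of the other CCN genes, *WISP1* and *WISP2* were listed but stayed under 0.4 CPM in all 6 libraries and were not tested.

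Ratios of reads within a library do not depend on how libraries are scaled. The ratio of *CYR61* to *CTGF* reads was 6.5, 6.39 and 6.57 in the lactate libraries, against 6.84, 5.87 and 6.39 in the controls, so the lactate values lay inside the control range. The ratio of *CTGF* to *NOV* reads was 58.2, 34.4 and 46 with lactate, against 6.01, 3.89 and 3.85 without. Its lowest lactate value was above its highest control value. *NOV* made up 0.229 to 0.392% of the reads of these 3 CCN genes with lactate and 2.08 to 3.61% without, while *CTGF* held 13.2 to 13.5% and 12.5 to 14%. The summed level of the 5 listed CCN genes was 1604 ± 119 CPM with lactate and 589 ± 39.2 CPM without.

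*ANKRD1*, on chromosome 10 (90912096 to 90921276, minus strand), encodes an ankyrin repeat protein of muscle and a much used YAP target. It had 21.6, 25.9 and 19.1 CPM in the lactate libraries, against 8.62, 10.2 and 9.45 CPM in the controls. The groups were well apart, and replicate 2 was the highest in each. The means were 22.2 ± 3.4 CPM with lactate and 9.44 ± 0.808 CPM without (log2 fold change 1.24, SE 0.185, adjusted p = 0.00715).

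The other direct YAP targets of the set did not pass the test. *AMOTL2*, on chromosome 3 (134355874 to 134375479, minus strand), encodes an angiomotin that binds YAP and holds it at cell junctions. It had 258, 300.3 and 292 CPM with lactate, against 216, 243 and 241 CPM without. Each lactate library lay above each control, but the log2 fold change of 0.28 missed the threshold (SE 0.133, adjusted p = 0.203). *AXL*, on chromosome 19 (41219203 to 41261766, plus strand), encodes a receptor tyrosine kinase for GAS6. It had 1102, 1067 and 1135 CPM with lactate, against 970.2, 852 and 904 CPM without (log2 fold change 0.28, SE 0.126, adjusted p = 0.188). Here too the groups did not overlap while the test was not passed. With a smooth dependence on GC content and transcript length (the GC and length trend) taken out of each library, these log2 fold changes were 0.04 for *AMOTL2* and 0.1 for *AXL*.

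**Figure D2:**
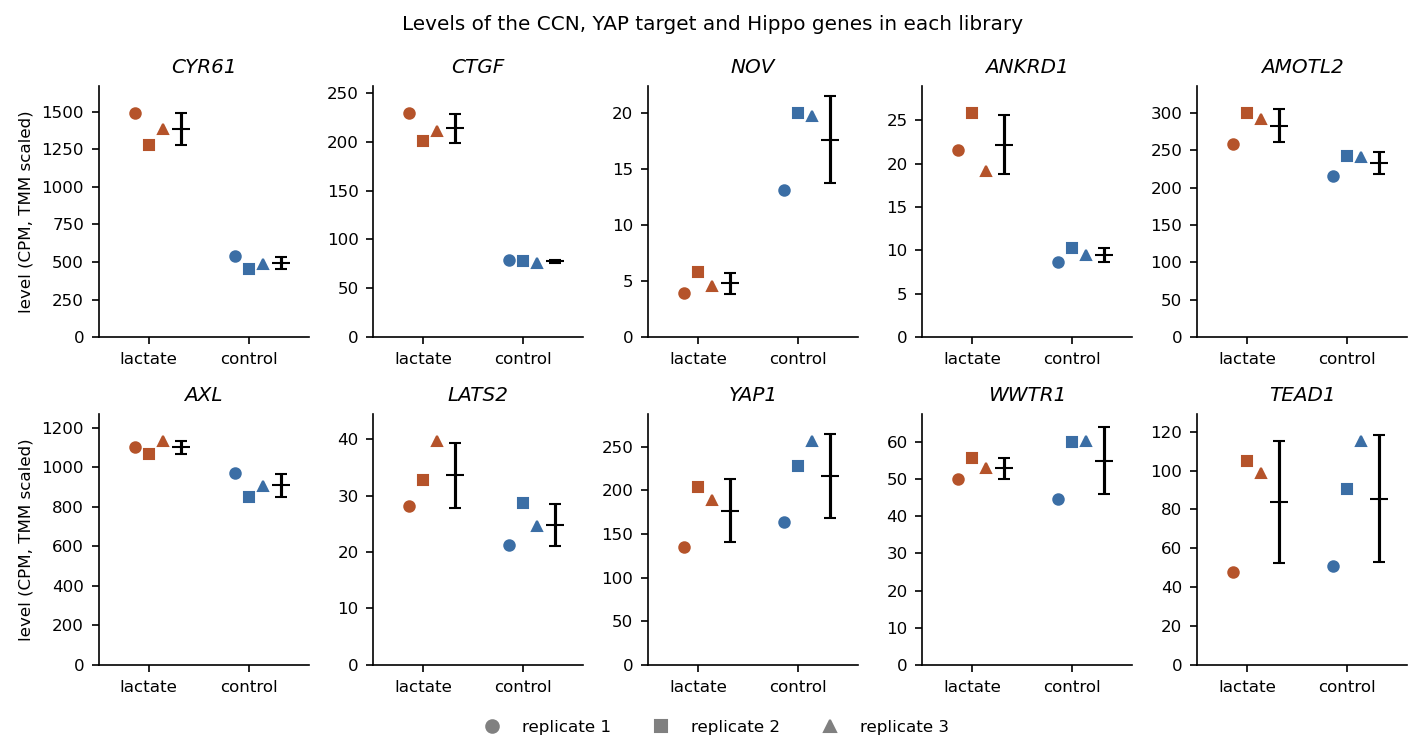
Level of each of the 10 genes (y axis, CPM scaled by TMM, from 0) in the 3 lactate libraries (brown, left) and the 3 control libraries (blue, right). Symbols mark the replicate, and bars beside the points show mean ± SD. *CYR61*, *CTGF*, *ANKRD1*, *AMOTL2* and *AXL* are higher and *NOV* lower in every lactate library, though *AMOTL2* and *AXL* did not pass the test. *LATS2*, *YAP1*, *WWTR1* and *TEAD1* overlap between the groups.

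The mRNAs of the coactivators and their DNA-binding partner did not pass the test. *YAP1*, on chromosome 11 (102110461 to 102233423, plus strand), had 136, 204 and 189 CPM with lactate, against 163, 228 and 257 CPM without (log2 fold change -0.29, SE 0.211, adjusted p = 0.39). Replicate 1 was the lowest of each group, and the groups overlapped. *WWTR1*, on chromosome 3 (149517235 to 149736714, minus strand), had 49.9, 55.7 and 53 CPM with lactate, against 44.6, 59.9 and 60.3 CPM without (log2 fold change -0.05, SE 0.163, adjusted p = 0.851). *TEAD1*, on chromosome 11 (12674591 to 12944483, plus strand), had 47.6, 105 and 98.5 CPM with lactate, against 50.7, 90.5 and 115 CPM without (log2 fold change -0.03, SE 0.344, adjusted p = 0.963).

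The spread of *TEAD1* ran along replicates rather than groups, with replicate 1 of each group far below the other libraries. Its longest transcript is 8477 bases long with 41.3% GC. In the fitted GC and length trend, *TEAD1* was placed -0.57 in lactate replicate 1 and -0.22 in control replicate 1 on the log2 scale, against 0.44 in control replicate 3. With that trend removed, the log2 fold change turned to 0.27 (SE 0.164, adjusted p = 0.268) for *TEAD1* and 0.26 (SE 0.107, adjusted p = 0.11) for *WWTR1*, and was -0.08 (SE 0.0904, adjusted p = 0.545) for *YAP1*. The sign of *TEAD1* and *WWTR1* thus differed between the fits, and neither passed in them.

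*LATS2*, on chromosome 13 (20973032 to 21061547, minus strand), encodes a kinase that inhibits YAP and is itself a YAP target. It had 28.2, 32.8 and 39.7 CPM with lactate, against 21.2, 28.6 and 24.6 CPM without. The lowest lactate library lay just below the highest control, and the log2 fold change of 0.44 missed the threshold (SE 0.19, adjusted p = 0.17).

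Levels were then compared between genes per kilobase of the longest annotated transcript, which may not be the transcript expressed here. The scaling assumes libraries that cover whole transcripts, as the kit in the labels does. *CYR61* was the most abundant of the 10 in lactate libraries (605 ± 46 CPM per kb), followed by *AXL* (233 ± 7.17), *CTGF* (91.3 ± 6.29), *AMOTL2* (62.7 ± 4.94) and *YAP1* (32.7 ± 6.69), each apart from the next in all libraries. *ANKRD1* (11.2 ± 1.72), *WWTR1* (10.5 ± 0.574), *TEAD1* (9.87 ± 3.7) and *LATS2* (6.09 ± 1.05) followed, each overlapping its neighbors in that order, and *NOV* was last (1.9 ± 0.381). In controls the range of *CYR61* (216 ± 18.4 CPM per kb) overlapped that of *AXL* (192 ± 12.5), and *CTGF* (33.1 ± 0.644) stood below *AMOTL2* (51.6 ± 3.32) and overlapped *YAP1* (40.0 ± 8.87). *NOV* (6.98 ± 1.55) stood above *ANKRD1* (4.77 ± 0.408) there. The coactivator mRNAs differed in amount, with 0.273 to 0.368 *WWTR1* reads per *YAP1* read in lactate libraries and 0.235 to 0.273 in controls.

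**Figure D3:**
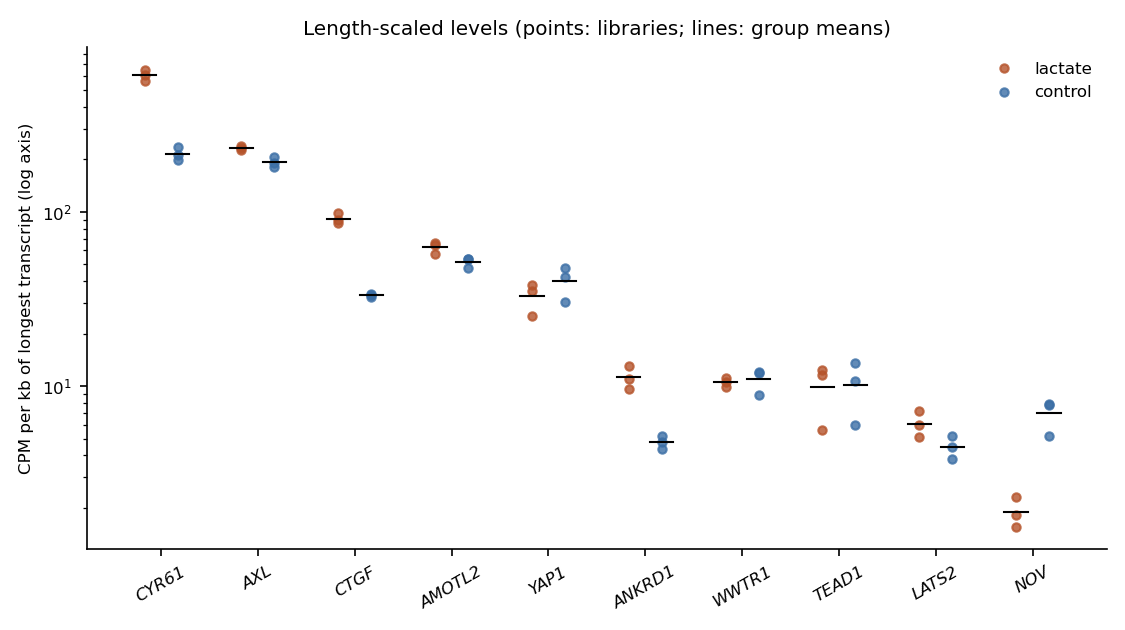
Level per kilobase of the longest transcript (y axis, log scale) for the 10 genes, ordered by their mean with lactate, in lactate libraries (brown, left) and controls (blue, right), with lines at the group means. *CYR61* is highest with 605 CPM per kb with lactate and 216 without, and *NOV* is last with lactate.

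Beyond the set, 16 further genes of a commonly used YAP/TAZ target signature were examined, of which 15 could be tested. Of these 4 rose and none fell, when 5.29% of all genes rose and 4.14% fell. A log2 fold change above 0 was seen in 10 of the 15, against 48.6% of all genes, and the median was 0.31. At an unadjusted p under 0.05, 6 were higher and 1 lower, when 27.8% of all tested genes passed that threshold, 13.9% in each direction. DESeq2 called 5 higher and 1 lower, when it called 17% of all genes, 8.76% higher and 8.28% lower. *CCDC80*, a secreted matrix protein gene, had 957, 975 and 988 CPM with lactate, against 480, 410 and 449 CPM without (log2 fold change 1.13, SE 0.129, adjusted p = 0.00284). *IGFBP3*, which encodes a carrier of insulin-like growth factors, had 131, 136 and 140 CPM with lactate, against 74, 72.7 and 72.6 CPM without (log2 fold change 0.89, adjusted p = 0.00582). These groups lay well apart. *GADD45A*, a growth arrest gene, rose by a log2 of 0.77 (adjusted p = 0.0222) and *NUAK2*, a kinase gene, by 0.63 (adjusted p = 0.0498, at the threshold). *MYOF*, which encodes the membrane repair protein myoferlin, had 198, 395 and 362 CPM with lactate, against 433, 545 and 614 CPM without, and its log2 fold change of -0.74 missed the threshold (adjusted p = 0.0963, but 0.0394 with DESeq2).

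Single libraries decided some of these calls. *IGFBP3* did not pass without control replicate 2 (adjusted p = 0.0571). *GADD45A* did not pass without control replicate 2 (adjusted p = 0.132), control replicate 3 (0.0881), lactate replicate 2 (0.0568) or lactate replicate 3 (0.0669). *NUAK2* passed without control replicate 1 and in none of the other fits that left out a library, where its adjusted p ran up to 0.233. It also missed the threshold with limma-voom (0.0556), with no filter (0.0603) and among genes of at least 10 CPM (0.0504). *CCDC80* passed in all 14 alternatives run. With the GC and length trend removed, 7 of the 15 rose and 1, *MYOF*, fell, with a median of 0.41, when 22.1% of all genes passed, 10.4% higher and 11.7% lower.

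Of 23 genes of Hippo kinases and their regulators, 1 fell and none rose, when 4.14% of all genes fell and 5.29% rose. Their median log2 fold change was -0.03. *MAP4K4*, which encodes a kinase that can activate LATS, had 171, 241 and 232 CPM with lactate, against 390, 351 and 397 CPM without (log2 fold change -0.82, SE 0.162, adjusted p = 0.0191). This gap was wider than the spread in either group. It did not pass without control replicate 2 (adjusted p = 0.0793), control replicate 3 (0.0641) or lactate replicate 3 (0.0792). At an unadjusted p under 0.05, 1 of the 23 was higher and 1 lower, a smaller share than the 27.8% of all genes. DESeq2 gave the same counts, against 17% of all genes. With the trend removed, 5 of the 23 fell and none rose, when 11.7% of all genes fell and 10.4% rose. The kinase genes *STK3*, *STK4* and *LATS1* had log2 fold changes of -0.09, -0.39 and -0.02, and none passed.

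None of 5 tested TEAD and VGLL genes passed, when 9.43% of all genes did, and their median log2 fold change was 0.36. Each had a log2 fold change above 0, as did 48.6% of all genes. At an unadjusted p under 0.05, 2 were higher and none lower, against 13.9% of all genes in each direction. *TEAD4*, the most abundant of them by CPM, had 66.1 ± 9.68 CPM with lactate and 57.6 ± 11.2 CPM without (log2 fold change 0.2, adjusted p = 0.507, but -0.07 with the trend removed). *VGLL4*, which competes with YAP for TEAD, had 36.2, 39.2 and 34.7 CPM with lactate, against 28.5, 27.4 and 25.3 CPM without (log2 fold change 0.44, adjusted p = 0.0926). DESeq2 called *TEAD3* and *VGLL4* higher, with adjusted p = 0.0416 and 0.0357, when it called 8.76% of all genes higher. None of the 5 was called by limma-voom, which called 8.08% of all genes. *VGLL4* also passed once control replicate 1 was left out (adjusted p = 0.0472), when 23.1% of all genes passed.

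*CYR61*, *CTGF* and *ANKRD1* also respond to SRF and its actin-sensing cofactors MRTF, so 21 SRF, MRTF and actin genes were set beside them. Of these 4 rose and none fell, with a median log2 fold change of 0.13. At an unadjusted p under 0.05, 7 of the 21 were higher and none lower, against 13.9% of all genes in each direction. DESeq2 called 6 higher and none lower, against 8.76% of all genes higher and 8.28% lower. The actin-binding protein gene *TAGLN* rose by a log2 of 1.57 (689, 465 and 484 CPM with lactate, against 234, 163 and 153 CPM without, adjusted p = 0.00548). *FHL1*, a LIM domain gene, had 87.8, 85.6 and 91.4 CPM with lactate, against 37.7, 42 and 40.7 CPM without (log2 fold change 1.14, adjusted p = 0.00338). The calponin gene *CNN1* rose by 1.09 (adjusted p = 0.0231) and *FHL2* by 0.54 (adjusted p = 0.0451). *SRF* itself did not pass (log2 fold change 0.06, adjusted p = 0.851). With the trend removed, 6 of the 21 rose and 2 fell, *FLNA* and *ZYX*, with a median of -0.03, when 22.1% of all genes passed. *CNN1* did not pass without control replicate 2 (adjusted p = 0.132), control replicate 3 (0.0831), lactate replicate 1 (0.0507) or lactate replicate 3 (0.107). *FHL2* passed only without control replicate 1 among the fits that left out a library, with an adjusted p of up to 0.199, and missed the threshold with no filter on low counts (0.0524).

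**Figure D4:**
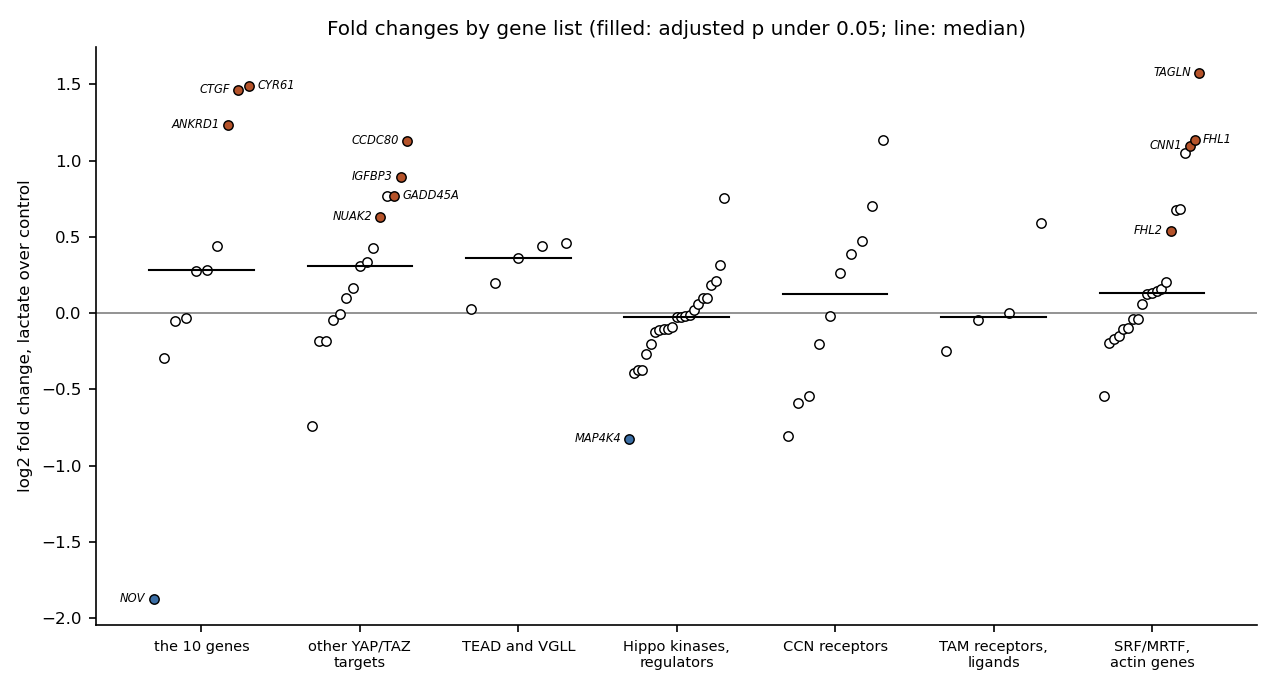
Log2 fold change (lactate over control, y axis) of every tested gene in the set and in 6 gene lists, each point a gene, sorted within its list. Filled points passed an adjusted p of 0.05 and are named, and lines mark medians. The 10 genes and the other YAP/TAZ targets have medians of 0.28 and 0.31, and the Hippo kinases and regulators have a median of -0.03.

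Receptors of the secreted and membrane members were examined last. None of 10 tested receptor genes for CCN proteins passed, when 9.43% of all genes did, and their median log2 fold change was 0.12. At an unadjusted p under 0.05, however, 4 were higher and 2 lower, when 27.8% of all genes passed that threshold. DESeq2 called 3 higher, *ITGB3*, *ITGA5* and *LRP1*, and 1 lower, *ITGB1*, when it called 17% of all genes. None was called by limma-voom. In the edgeR fit, the log2 fold change was 1.14 for *ITGB3* (adjusted p = 0.0542), 0.7 for *LRP1* (0.0602) and -0.81 for *ITGB1* (0.0916). *ITGB3* was low, with a mean of 5.86 CPM with lactate and 2.66 CPM without. *ITGA5*, an integrin subunit of the fibronectin receptor, had 502 ± 27.1 CPM with lactate and 362 ± 36.2 CPM without (log2 fold change 0.47, adjusted p = 0.0579). Its log2 fold change of 0.56 passed once control replicate 1 was left out (adjusted p = 0.018), when 23.1% of all genes passed. With the trend removed, 0.29 passed as well (adjusted p = 0.0255), when 22.1% of all genes did. *ITGA5* passed in 6 of 14 alternatives, and its adjusted p ran up to 0.266 with another library left out. The proteoglycan gene *SDC4* did not pass (log2 fold change -0.2, adjusted p = 0.434). None of 4 genes of the family of AXL and its ligands passed either. At an unadjusted p under 0.05 and by DESeq2, 1 was higher, when 13.9% and 8.76% of all genes were higher. That was *GAS6*, the ligand of AXL, with 294, 225 and 229 CPM in lactate libraries, against 195, 163 and 138 CPM in controls (log2 fold change 0.59, adjusted p = 0.0661). The log2 fold change of *GAS6* was 0.73 once control replicate 1 was left out (adjusted p = 0.0229) and 0.27 with the trend removed (adjusted p = 0.0322). Both passed, in fits where 23.1% and 22.1% of all genes did. *GAS6* passed in 6 of 14 alternatives, and its adjusted p ran up to 0.234 with another library left out. *TYRO3*, a related receptor gene, did not pass (log2 fold change -0.25, adjusted p = 0.38).

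To find genes whose pattern was most like that of the risers, each gene's log2 level was centered on its mean over the 6 libraries and compared by the root mean square difference, among 8869 genes with a mean of at least 10 CPM. The genes nearest to *CYR61* were *ATG16L2* (difference 0.0572 on the log2 scale), *TMEM8B* (0.0658) and *CTGF* (0.0669). *CYR61* was the nearest of all to *CTGF*, followed by *DOCK6* (0.0869), a guanine nucleotide exchange factor gene, and *GAA* (0.0892), which encodes the lysosomal acid alpha-glucosidase. *ANKRD1* had no neighbor as close. Its nearest were the protease gene *PRSS12* (0.136), the vesicular nucleotide transporter gene *SLC17A9* (0.143) and the arrestin-domain gene *TXNIP* (0.148). The closest genes share the group difference and these 6 libraries, so the likeness is a description over 6 points.

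The calls of the 4 genes that passed held in all 14 alternatives run. The log2 fold change ran from 1.42 to 1.56 for *CYR61*, from 1.31 to 1.51 for *CTGF*, from 1.11 to 1.51 for *ANKRD1* and from -2.05 to -1.75 for *NOV*. The largest adjusted p of each came without control replicate 2, with values of 0.0176, 0.0164, 0.0467 and 0.0338, when 172 of 13399 genes passed in all. Without replicate 1 of each group, a further 4 genes of the set passed, *AMOTL2*, *AXL* and *LATS2* higher and *YAP1* lower, but 47.4% of all genes passed in that fit of 4 libraries. With the trend also removed there, none of those 4 passed and *WWTR1* and *TEAD1* passed as higher, with 43.2% of all genes past the threshold.

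**Figure D5:**
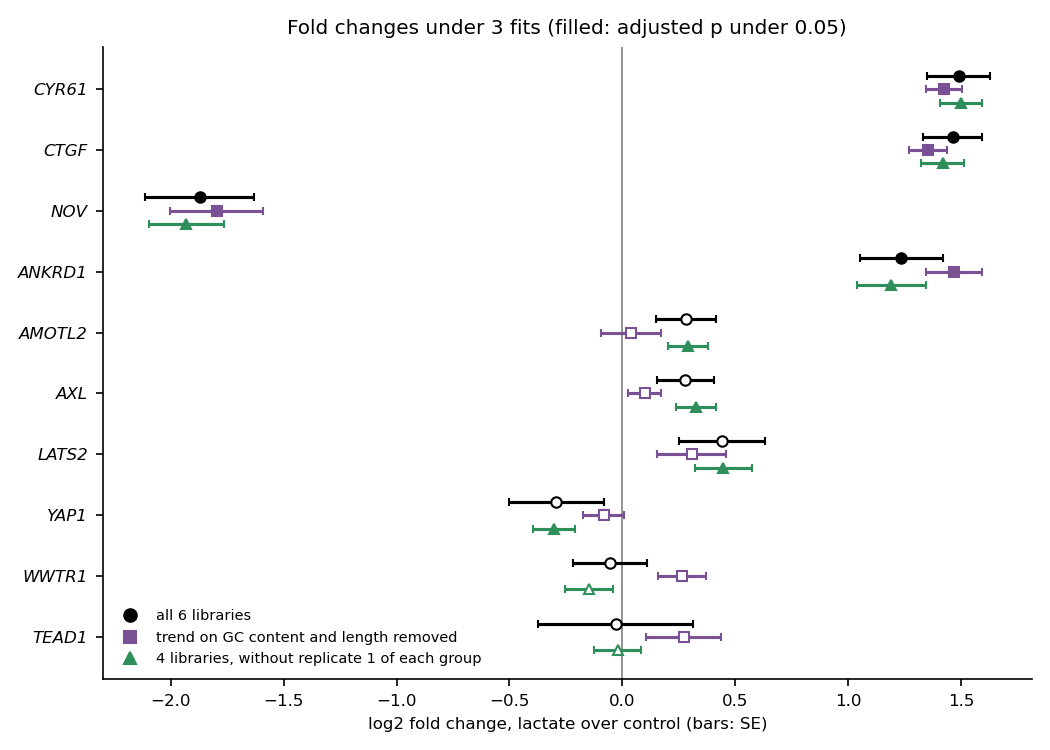
Log2 fold change (x axis, lactate over control, bars ± SE) of the 10 genes in the fit of all 6 libraries (black), with the GC and length trend removed (purple) and without replicate 1 of each group (green). Filled symbols passed an adjusted p of 0.05. *CYR61*, *CTGF*, *NOV* and *ANKRD1* keep their sign and call in the 3 fits, while *WWTR1* and *TEAD1* change sign with the trend removed.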

How the data were processed

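RNA from 6 cultures of WPMY-1 cells (3 with lactate, 3 without) was measured by poly(A)-selected, directional, single-end RNA-seq, per the labels. The study also describes 3′ end libraries, which it processed apart from its RNA-seq, and the kit in the labels was taken as that of these samples. The table the authors deposited holds raw counts for each gene symbol. STAR, DESeq2 and hg38 are named in the submitters' notes on processing, and versions, annotation and strand setting are not given in the sources used here, so antisense genes overlapping exons of *CTGF*, *AXL*, *YAP1* and *WWTR1* could add reads. *WWTR1-AS1* is listed with few reads. On the same strand, the pseudogene *RPL39P5* overlaps exons of *AMOTL2*, so *AMOTL2* reads could be affected under any strand setting.

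Groups came from the treatment label. Genes passing filterByExpr (13188, with 99.96% of the counts) were fitted with the edgeR 4.0.16 quasi-likelihood test (R 4.3.3, TMM, no covariate). The SE is the fold change over the square root of F. Total counts ran from 20238653 to 46505372 per library, and the biological coefficient of variation was 20.2%. Alternatives were total library size, DESeq2 1.42.0, limma-voom (limma 3.58.1), other filters, each library left out, replicate 1 of both groups left out, and an edgeR offset from splines (5 degrees of freedom) on GC content and longest transcript length in GENCODE 29, to which 95.8% of symbols matched. No library was a copy of another of its group (chi-square of 7.13 or more per degree of freedom in the 6 pairs within groups).

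The set, the gene lists and the rule for named genes were chosen with earlier results of these data known. Named genes were the 10, up to 4 passing genes of each list with the largest change or else the 2 with the highest CPM, and the 3 genes nearest in pattern to *CYR61*, *CTGF* and *ANKRD1*. *MYOF*, *STK3*, *STK4*, *LATS1*, *TEAD3*, *SRF*, *FLNA*, *ZYX*, *ITGB1*, *ITGB3* and *LRP1* were added after their values were seen.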

Additional observations from a re-analysis of the deposited data

How the results depend on the processing

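Over 14 alternatives, the calls of *CYR61*, *CTGF*, *NOV* and *ANKRD1* kept their direction and side of the threshold. The number of genes past it over the whole table did not. It was 698 higher and 546 lower in the edgeR fit, 1155 and 1092 with DESeq2, 404 and 300 with at least 10 CPM, 1378 and 1540 with the GC and length trend removed, 3002 and 3293 without replicate 1 of both groups, and 2779 and 2955 with the trend also removed there. Leaving out each library in turn gave 92 to 1480 higher and 79 to 1612 lower. The smallest numbers came without control replicate 2 for the higher genes and without lactate replicate 3 for the lower ones, and the largest without control replicate 1. The share of calls that were higher was 56.1%, 63.1% with total library size and 47.2% with the trend removed.

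In the 4 libraries left without replicate 1 of both groups, the log2 fold changes of 0.29 for *AMOTL2*, 0.33 for *AXL*, -0.30 for *YAP1* and 0.45 for *LATS2* passed. With the trend also removed, *AMOTL2* turned to -0.0092, *WWTR1* to 0.19, *TEAD1* to 0.26 and *TEAD4* to -0.026. With the trend removed from all 6 libraries, *WWTR1* turned to 0.26, *TEAD1* to 0.27 and *TEAD4* to -0.068. Leaving out each library gave -0.19 to 0.016 for *WWTR1* and -0.30 to 0.25 for *TEAD1*. The cause was not tested. The median log2 fold change of the Hippo and TEAD genes was -0.01 and ran from -0.091 to 0.15 with a library left out. That of the SRF, MRTF and actin genes was 0.13, ran from 0.018 to 0.27 with a library left out, and was -0.025 with the trend removed. No paired analysis was possible because the labels give no replicate numbers shared by the groups, and numbers here follow the order of the samples.

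Depth limits *NOV* most, with 75 to 141 reads per lactate library, and *WISP1* and *WISP2*, which could not be tested.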
